A study of Solanum lycopersicum with 27 samples.

Results

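Mature leaf labelled control was compared between day 8 and day 5 of a water deficit experiment on tomato (Solanum lycopersicum, cultivar Moneymaker, wild type). The comparison used 5 of the 27 libraries of the series, 2 of day 8 and 3 of day 5. Libraries were assigned to it by their labels, and the pair of days was picked with earlier results of these data known. Days were counted from the time at which watering of the deficit arm stopped, when plants were 50 days old. Both groups came from plants labelled control, which were watered to soil capacity on alternate days, and each library was made from polyadenylated RNA of 1 leaflet of a mature leaf. By their labels both groups thus shared genotype, tissue and watering, and differed in the day of collection. All groups of the series were listed with 16 h of light and 8 h of dark. Control and deficit are used throughout as labels: no measurement in the files records the water status of a plant, and whether the labels of the arms were exchanged was not tested. Other groups served for comparison: control-labelled mature leaf of days 4 (3 libraries) and 10 (2 libraries), deficit-labelled mature leaf of days 4, 5 and 10 (3 libraries each) and 8 (2 libraries), and whole young leaves, still developing, of day 10 under either label (3 libraries each). Deficit-labelled plants received no water. The labels do not say whether libraries of a group came from separate plants, so p-values measure the spread between libraries, which may be partly technical.

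Tomato leaves are compound, and a mature leaflet is a fully formed photosynthetic organ made of epidermis, mesophyll and veins. Messenger RNA levels in leaves are known to follow leaf age, the hour of the day, light and the water status of the plant. The locus identifiers in the table of counts were not paired with gene names by the table or by the reference used here: 0 of the 34688 identifiers matched. Loci are therefore described by level, size of change, chromosome and behaviour in other libraries, 2 loci that rose and 2 that fell are named by identifier, and the labelled tissue could not be checked against marker genes. In a sample of whole tissue, fewer cells of a type and less RNA per cell cannot be told apart.

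Total counts were 16152430 and 18098044 in the day 8 libraries and between 18334277 and 19463781 in the day 5 libraries. Of the 34688 loci, 19087 had enough counts for testing. One library outside the comparison, replicate 1 of the deficit-labelled mature leaf of day 10, lay with the libraries of the other label. It takes part in the shared estimate of the spread, so numbers of calls are also given without it. Each day was a separate collection, so a batch by day cannot be told apart from day within this arm.

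The 5 libraries fell into 2 groups that matched their labelled days. Correlation of log2 CPM (CPM, a locus's share of a library's counts on a fixed scale, corrected for library composition) was 0.993 between the day 8 libraries and 0.99 to 0.993 among the day 5 libraries, against 0.93 to 0.937 between days. The first principal component carried 86.2% of the variance, with scores of 85.1 and 80.4 at day 8 and of -56.3, -55.5 and -53.7 at day 5. A second measure was the share of counts that would have to be reassigned to other loci to turn one library into another. It was 4.21% between the day 8 libraries, 3.2% to 4.09% among the day 5 libraries and 18.6% to 19.8% in the 6 pairs across days. The difference between days was thus several times what separated replicates.

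At day 8, 9598 of 19087 loci differed from day 5 (edgeR's quasi-likelihood test, Benjamini-Hochberg adjusted p below 0.05), or 50.3% of those tested. By direction, 4710 loci (24.7%) rose and 4888 (25.6%) fell, a nearly even split. The sizes were not. Among the 3409 calls of at least 2-fold (17.9%), 1276 were higher (6.69% of loci tested) and 2133 lower (11.2%). At 4-fold or more the numbers were 419 higher and 966 lower, and at 16-fold or more 85 higher and 229 lower. The median log2 fold change was 0.64 over the loci called higher and -0.86 over those called lower, while over all loci it was 0 and its median absolute value 0.45. Scaling of the libraries takes most loci as unchanged, so the median of 0 and the even split follow in part from it. A change in the total amount of messenger RNA could not be seen. Without replicate 1 of the deficit-labelled day 10 group, 11729 loci were called, 61.5% of those tested, and 9589 of the 9598 were among them with the same sign. Without day 8 replicate 1, the shallower of the day 8 libraries, 6322 loci were called, with 1 library standing for day 8 and assumed to vary like the other groups.

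The loci called at least 2-fold were followed into the libraries that the comparison did not use. These loci were chosen by the 5 libraries of days 8 and 5, so their levels there are a description. The 1276 loci called higher had a median level of 2.80 and 2.73 log2 CPM in the day 8 libraries and of 1.06, 1.03 and 0.97 log2 CPM in the day 5 libraries. They held 7.46% and 7.61% of the counts at day 8 and 1.97% to 2.03% at day 5. In libraries that had no part in the choice, the control-labelled mature leaf stood at 0.75 to 0.87 log2 CPM at day 4 and at 2.54 and 2.55 log2 CPM at day 10. The gap between days 8 and 5 follows from the choice of the loci. Of the days that had no part in it, day 10 lay near day 8 and day 4 near day 5.

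The 2133 loci called lower had median levels of 1.05 and 1.12 log2 CPM at day 8, and of 3.10, 3.08 and 3.03 log2 CPM at day 5. Their share of counts was 4.81% and 4.95% at day 8 and 14.4% to 14.9% at day 5. At day 4 the control-labelled libraries lay at 3.34 to 3.47 log2 CPM, and at day 10 at 1.31 and 1.38 log2 CPM. Here too day 10 lay near day 8 and day 4 near day 5, while the gap between days 8 and 5 follows from the choice.

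In deficit-labelled mature leaf both sets stayed near their day 5 level. The rising set lay at 0.76 and 0.77 log2 CPM at day 8 and at 0.75 to 0.91 log2 CPM at day 5 in that arm. The falling set lay there at 3.50 and 3.44 log2 CPM at day 8 and at 3.59 to 3.61 log2 CPM at day 5. At day 10, replicates 2 and 3 of that arm had 0.75 and 0.70 log2 CPM for the rising set and 3.38 and 3.33 log2 CPM for the falling set. Replicate 1 of that group had 2.56 and 1.40 log2 CPM for these sets, values like those of the control-labelled libraries of day 10.

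Young leaves of day 10 were divided by label in the same manner. The rising set had 1.03 to 1.06 log2 CPM in deficit-labelled young leaves and 2.48 to 2.52 log2 CPM in control-labelled ones. The falling set had 3.89 to 3.93 log2 CPM in deficit-labelled and 1.56 to 1.62 log2 CPM in control-labelled young leaves. The levels of day 8 control-labelled mature leaf were thus near those of control-labelled young leaf of another day and leaf age.

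**Figure D1:**
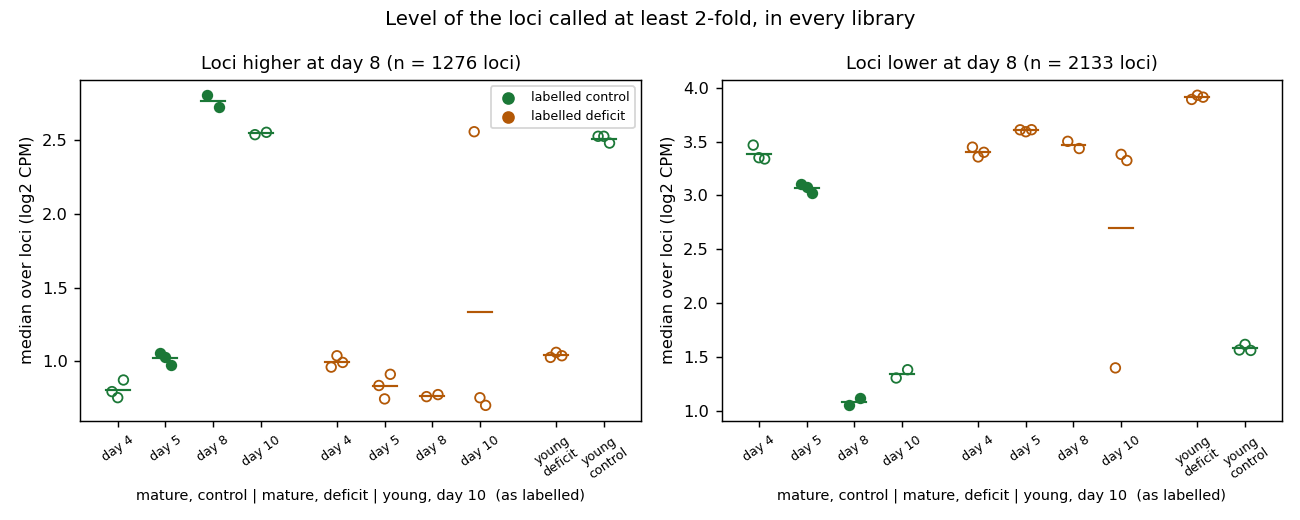
Median level (log2 CPM) of the 1276 loci called higher and the 2133 called lower at day 8, in each of the 27 libraries, with lines at group means; filled points are the 5 libraries that chose the loci. Control-labelled libraries of days 8 and 10 and of young leaf lie together and apart from all others except replicate 1 of the deficit-labelled mature group of day 10.

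The share and direction of calls varied with abundance. Loci were divided by their mean log2 CPM over all 27 libraries. The share called grew from 29.1% of the 2478 loci under 0 log2 CPM to 61.1% of the 506 loci at 8 log2 CPM or more, beside 50.3% over all loci, and more counts give more precise values. Most libraries share the day 5 level of the changing loci (19 of 27 had a median under 2 log2 CPM for the rising set), so this mean places falling loci higher and rising loci lower. Loci called at least 2-fold higher made up 16.2% of the class under 0 log2 CPM and 1.78% of the class at 8 or more. Loci called at least 2-fold lower made up 12.6% of the lowest class, 7.01% of the class from 4 to 6 and 14.8% of the highest class. Ranked instead by the evenly weighted mean of the day 8 and day 5 levels, rises made up 11.9% of the lowest and 2.91% of the highest class, and falls 19.8% and 11.6%. Which direction was more frequent in the lowest class thus depended on the ranking, while falls outnumbered rises in all other classes under both.

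Among the most abundant transcripts more fell than rose. Of the 100 loci with the highest mean over all libraries, 62 were called lower and 9 higher at day 8, beside 25.6% lower and 24.7% higher over all tested loci. With the evenly weighted mean of days 8 and 5, the 100 highest loci held 51 called lower and 13 called higher. For the ranking over all libraries, falls of at least 2-fold numbered 31 and rises 3, against 20 and 4 for the other. The median log2 fold change of the 100 loci was -0.63, within a range from -3.74 to 6.65, and -0.40 with the other ranking. The 100 loci ranked over all libraries held 16.2% and 16.5% of the counts at day 8 and 20.3%, 21% and 20.7% at day 5, with no overlap between the days. Of the 100 most abundant loci of day 5, 63 were also among the 100 most abundant of day 8. Without day 8 replicate 1, 4 of the 100 loci were called higher and 53 lower.

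**Figure D2:**
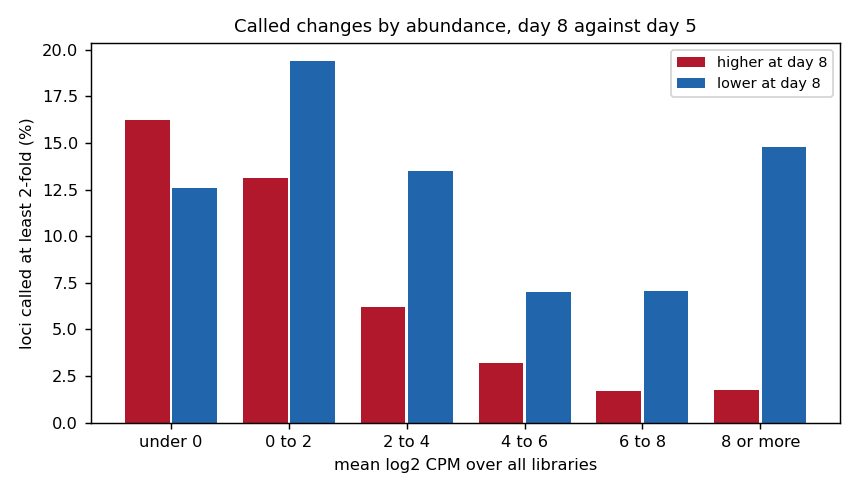
Share of tested loci called at least 2-fold higher or lower at day 8 relative to day 5, in classes of mean log2 CPM over all libraries. Rises run from 16.2% in the lowest class to 1.78% in the highest, while falls are 12.6% in the lowest and 14.8% in the highest; this mean places falling loci higher and rising loci lower.

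The 2 rising loci named by a fixed rule were the called locus with the largest log2 fold change and the one with the largest gain in mean CPM. The first, Solyc02g084850.3 on chromosome 2 by its identifier, had 6724 and 6600.1 CPM at day 8, against 56.1, 71.8 and 70.5 CPM at day 5. It ranked 4 among all loci by count in both day 8 libraries, and between 3290 and 4209 at day 5. The means were 6662 ± 87.4 CPM at day 8 and 66.1 ± 8.75 CPM at day 5 (SD, n = 2 and 3), 101-fold apart. For all named loci the rule required that the days not overlap, which held at 13962 of the 19087 tested loci. The named loci were picked as extremes of this comparison. Their fold changes and p-values for it, and for any other comparison that uses its libraries, are therefore descriptions. The log2 fold change was 6.65 (SE 1.56, adjusted p = 0.00199, edgeR's quasi-likelihood test).

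Solyc02g084850.3 had a higher mean at each later sampling of the control-labelled arm. The group means were 5.58 CPM at day 4, 66.1 CPM at day 5, 6662 CPM at day 8 and 12405 CPM at day 10. The step between days 5 and 4 missed the threshold (log2 fold change 3.57, adjusted p = 0.0778), but passed without replicate 1 of the deficit-labelled day 10 group (adjusted p = 2e-05, quasi-likelihood test). Days 10 and 8 did not differ by the test (log2 fold change 0.90, adjusted p = 0.712). In the deficit-labelled arm it had 3.53 and 5.41 CPM at day 8 and 4.25 to 4.77 CPM at day 5, and those groups overlapped. The difference between the 2 arms' steps was 6.65 on the log2 scale (SE 2.22, adjusted p = 0.0212). That difference missed the threshold when deficit-labelled day 8 replicate 1 or 2 was left out (adjusted p = 0.0894 and 0.072), and was at adjusted p = 7.51e-06 without replicate 1 of the deficit-labelled day 10 group. Young leaves of day 10 had 3.18 to 4.97 CPM where labelled deficit and 17436 to 24324 CPM where labelled control.

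The other rising locus, Solyc01g095320.4 on chromosome 1 by its identifier, was the most abundant locus in both day 8 libraries. It had 12497 and 16623 CPM at day 8, against 2714 to 3304 CPM at day 5, where it ranked 18 to 24. At day 8 it alone took 1.26% and 1.65% of all counts, against 0.261% to 0.311% at day 5. The means were 14560.1 ± 2918 CPM at day 8 and 2962 ± 306 CPM at day 5 (SD, n = 2 and 3), a 4.92-fold difference. The log2 fold change was 2.30 (SE 0.819, adjusted p = 0.0262, quasi-likelihood test). This call was lost whichever of the 5 libraries was omitted (adjusted p from 0.0538 to 0.102). It was far past the threshold without replicate 1 of the deficit-labelled day 10 group, where the SE was 0.138 (adjusted p = 3.59e-13).

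Along the control-labelled arm Solyc01g095320.4 averaged 656.6 CPM at day 4, 2962 CPM at day 5, 14560.1 CPM at day 8 and 12612 CPM at day 10. Its mean was highest at day 8, which the choice of this locus for its gain at day 8 favours. Without day 8 replicate 2 the fitted level was higher at day 10 (log2 fold change 0.03558 for day 10 over day 8). With all libraries the change between days 10 and 8 was not called (-0.21 on the log2 scale, adjusted p = 0.905). In the deficit-labelled arm it had 545.9 and 449.5 CPM at day 8 and 374 to 420.2 CPM at day 5. The difference of the 2 steps was 1.96 on the log2 scale and was not called (SE 1.17, adjusted p = 0.182), but was called without replicate 1 of the deficit-labelled day 10 group (1.93, SE 0.199, adjusted p = 1.28e-08).

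The falling loci were named by the same rule. Solyc06g062330.3, on chromosome 6 by its identifier, had 0 counts in both day 8 libraries. At day 5 it had 139, 134 and 147 counts, or 7.42, 7.51 and 8.51 CPM, a mean of 7.81 ± 0.604 CPM (SD, n = 3). With a floor of 3 counts per library, which covers counting error only, its mean was at least 44.6-fold lower at day 8. This bound was not itself tested. The quasi-likelihood test against no change gave adjusted p = 3.21e-05.

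Because Solyc06g062330.3 was picked for its fall to the day 8 level, the test of days 10 and 8 is a description here. The locus was detected again at day 10. Its means in the control-labelled arm were 24.7 CPM at day 4, 7.81 CPM at day 5, 0 CPM at day 8 and 1.32 CPM at day 10. At day 10 the counts were 26 and 23, against 0 in both libraries at day 8 (adjusted p = 0.0145), but this call was lost without either day 8 library or without day 10 replicate 2 (adjusted p from 0.0542 to 0.0798). In the deficit-labelled arm it had 16.3 and 16.5 CPM at day 8 and 16.0 to 21.9 CPM at day 5. The difference between the arms' steps passed the test (adjusted p = 0.000245).

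Solyc12g094620.3, on chromosome 12 by its identifier, was the most abundant locus in all 3 day 5 libraries and ranked 3 in both day 8 libraries. It had 8033 and 7444 CPM at day 8, against 12913, 12767 and 14363 CPM at day 5. The means were 7739 ± 416 CPM at day 8 and 13348 ± 883 CPM at day 5 (SD, n = 2 and 3). The log2 fold change was -0.79 (SE 0.114, adjusted p = 2.42e-05, quasi-likelihood test), the largest loss in CPM of any called locus that met the naming rule although its fold was small. Over days 4, 5, 8 and 10 the control-labelled means were 16549, 13348, 7739 and 10924 CPM. The lowest mean was thus at day 8, which the choice of this locus for its loss at day 8 favours. In the deficit-labelled arm it had 13377 and 13517 CPM at day 8 and 12512 to 13478 CPM at day 5, and the difference of the steps was -0.85 on the log2 scale (SE 0.158, adjusted p = 0.000412).

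**Figure D3:**
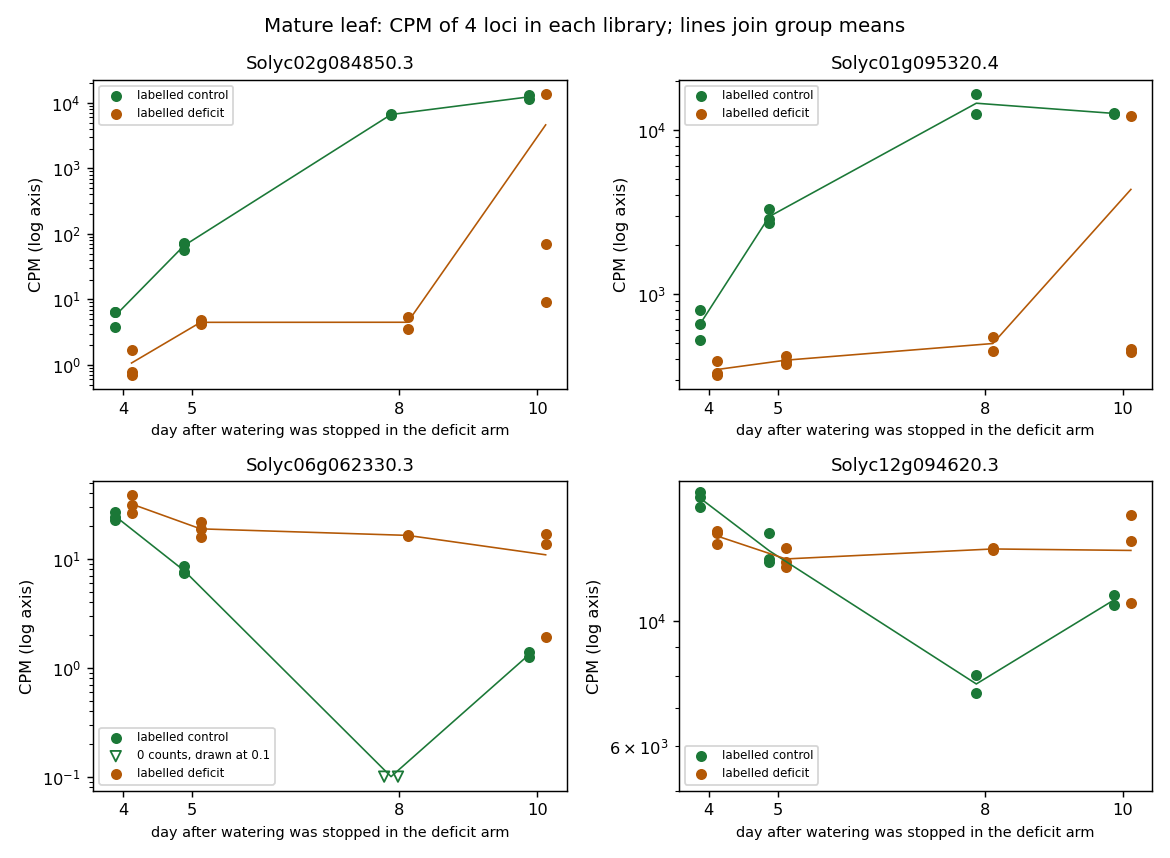
CPM (log axis) of the 4 named loci in each mature leaf library against day, control-labelled and deficit-labelled, with lines through the group means; 0 counts are drawn at 0.1. In all 4 panels the control-labelled libraries moved between days 5 and 8, and replicate 1 of the deficit-labelled day 10 group lies with the control-labelled ones.

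A small number of loci fell to a floor of 3 counts per library or rose from it, and are here called lost and gained. Over all deposited loci, 95 had a mean of at least 1 CPM at day 5 and no more than 3 counts in either day 8 library, 22 of them with 0 counts at day 8. The opposite pattern, at least 1 CPM at day 8 and no more than 3 counts in any day 5 library, was found at 27 loci, 6 of them with 0 counts at day 5. Lost loci had to be at the floor in 2 libraries, 1 of them the shallowest of those compared, and gained loci in 3. The numbers of lost and gained loci are therefore not directly comparable. Most of these loci were low. The median of their mean CPM, here not corrected for library composition, was 1.83 at day 5 for lost loci and 1.66 at day 8 for gained loci. In libraries that had no part in this choice, 55 of the 95 lost loci also had no more than 3 counts in either day 10 control-labelled library, and 3 had a mean of at least 1 CPM there. Of the 27 gained loci, 22 had a mean of at least 1 CPM at day 10. In deficit-labelled leaf of day 8, 84 of the 95 lost loci had at least 1 CPM, and 21 of the 27 gained loci had no more than 3 counts in either library.

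Most of the difference between the first and last samplings was present at day 8. Between days 10 and 4, 9665 loci were called in control-labelled mature leaf, 50.6% of those tested, 1641 of them at least 2-fold higher (8.6%) and 2784 at least 2-fold lower (14.6%). This pair of days shares no library with days 8 and 5. For each of these loci the level of day 5 and of day 8 was placed on the log2 scale, with day 4 at 0% and day 10 at 100%. Loci that were higher at day 10 stood at a median of 33.9% at day 5 (quartiles 11.1% and 56.8%) and of 94.5% at day 8 (quartiles 73.5% and 116%). Loci that were lower stood at a median of 24.7% at day 5 (quartiles 5.82% and 44.6%) and of 95.7% at day 8 (quartiles 71.9% and 117%). At day 5, 32.3% of the loci that ended higher and 19.4% of those that ended lower had passed the midpoint. At day 8 the shares were 87.8% and 89.8%. The level of day 8 was beyond that of day 10 at 676 of the 1641 and at 1155 of the 2784 loci.

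**Figure D4:**
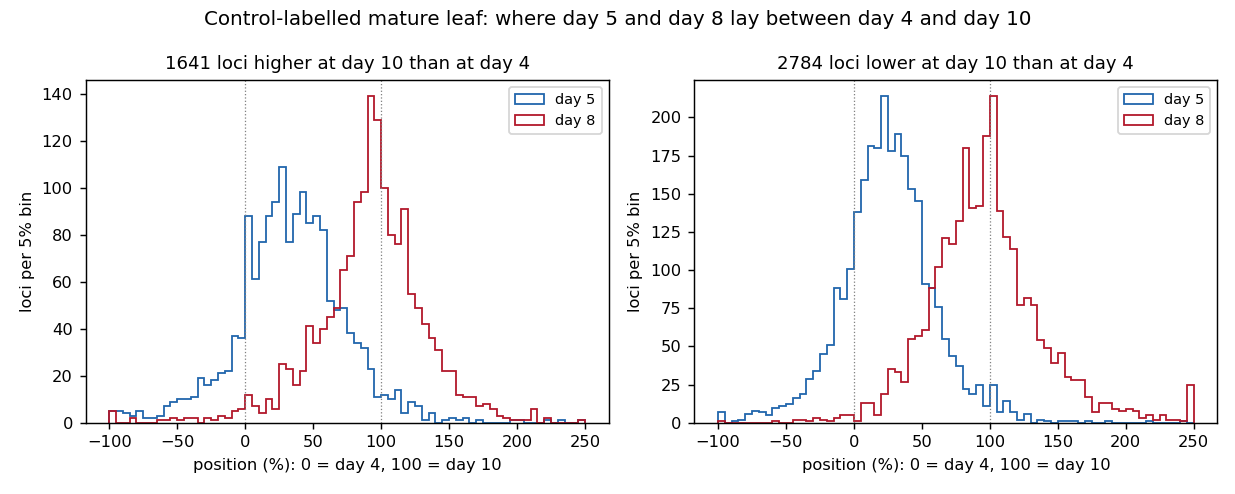
Number of loci by the position of day 5 and day 8 between day 4 (0%) and day 10 (100%) on the log2 scale, for loci at least 2-fold higher or lower at day 10 than at day 4 in control-labelled mature leaf; values past the axis ends are drawn at the ends. The day 8 medians of 94.5% and 95.7% lie near 100%, against day 5 medians of 33.9% and 24.7%.

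Changes between days 8 and 5 also matched those between days 10 and 4 in direction. Of the 9598 calls, 5530 were called with the same sign between days 10 and 4, which is 57.6% of the calls between days 8 and 5 and 57.2% of the calls between days 10 and 4. Calls of opposite sign numbered 299. Taken over all tested loci, the fold changes had a Pearson correlation of 0.783 and a Spearman correlation of 0.703, where loci do not count as independent replicates. Among the loci called at least 2-fold higher at day 8, 955 were called higher and 13 lower at day 10 than at day 4, beside 23.1% and 27.6% of all tested loci. Among those called at least 2-fold lower, 1832 were called lower and 29 higher.

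The neighbouring steps of the arm were smaller. Days 5 and 4 differed at 3672 loci (19.2% of those tested), 1127 of them (5.9%) by at least 2-fold, and days 10 and 8 at 4590 loci (24%), 711 of them (3.73%) by at least 2-fold. Without replicate 1 of the deficit-labelled day 10 group these numbers were 7214 and 7877 loci, 1568 and 1070 of them at least 2-fold. The share of counts at other loci was 11.2% to 12.5% between days 5 and 4 and again 11.2% to 12.5% between days 10 and 8, below the 18.6% to 19.8% between days 8 and 5. These steps share libraries with the comparison of days 8 and 5, and the 3 intervals differ in length. They also differ in numbers of libraries, which affects the numbers of calls. Days 8 and 5 were picked with earlier results of these data known, so the larger size of their step is a description and not a test. Leaving out one library moved the number for days 5 and 4 to between 2326 and 3084 and that for days 10 and 8 to between 1946 and 2929.

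The same days differed far less in the arm labelled deficit. There, 2285 loci were called between days 8 and 5 (12% of those tested), 1015 higher (5.32%) and 1270 lower (6.65%). Calls of at least 2-fold numbered 354 (1.85%), of which 115 were higher (0.603%) and 239 lower (1.25%). Without replicate 1 of the deficit-labelled day 10 group 6020 loci were called, 593 of them at least 2-fold, and without either deficit-labelled day 8 library 489 or 506 were called. Without deficit-labelled day 5 replicate 3 the number was 944. The share of counts at other loci was 8.23% to 11.6%. The median absolute log2 fold change was 0.45 in the control-labelled arm and 0.24 in the deficit-labelled arm, each over all 19087 loci.

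Whether the step differed between the arms was tested directly. The difference passed the quasi-likelihood test at 8512 loci (44.6% of those tested), with a more positive step in the control-labelled arm at 4013 (21%) and a more negative one at 4499 (23.6%). Of the 8512 loci, 5993 were called between days 8 and 5 in control-labelled leaf and not in deficit-labelled leaf, with a median absolute log2 fold change of 0.78 in the control-labelled and 0.21 in the deficit-labelled arm. Another 846 were called in both arms with opposite signs, and 103 in both with the same sign. Of the 3409 loci called at least 2-fold in the control-labelled arm, 2404 passed the test of the difference, 767 of them higher and 1637 lower at day 8.

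Over all tested loci the 2 arms' fold changes had a Pearson correlation near 0 (r = -0.0219) and a weak negative Spearman correlation (rho = -0.16). Loci called in both arms had opposite signs (846) more often than the same sign (432). Among loci called at least 2-fold in control-labelled leaf the same sign was the more frequent. Of those higher at day 8, 45 were called with the same and 29 with the opposite sign in the deficit-labelled arm. Of those lower at day 8, the numbers were 152 and 56. The arms share no library. Of the calls of the control-labelled arm, 4.5% were called with the same sign and 8.81% with the opposite sign in the deficit-labelled arm. Of the calls of the deficit-labelled arm, 18.9% had the same and 37% the opposite sign in the control-labelled arm. Without replicate 1 of the deficit-labelled day 10 group, the shares with the same and the opposite sign were 11.4% and 25.2% of the control-labelled calls. Of the deficit-labelled calls they were then 22.1% and 49%. The loci called at least 2-fold higher in control-labelled leaf had a median log2 fold change of -0.10 in the deficit-labelled arm, and those called at least 2-fold lower one of -0.01, whose sign varied with the scaling, beside 0.01 over all loci.

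**Figure D5:**
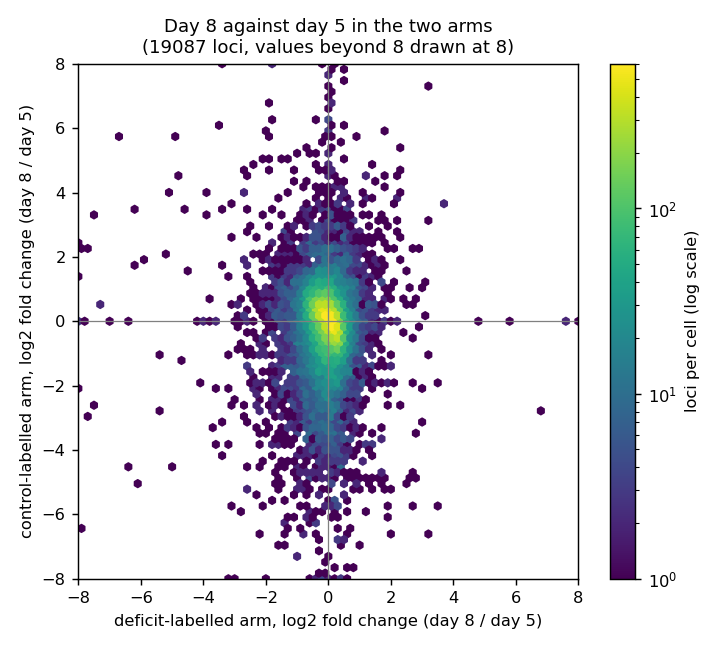
Log2 fold change of day 8 over day 5 in control-labelled (vertical) against deficit-labelled mature leaf (horizontal) for the 19087 loci, coloured by the number of loci per cell. The cloud is tall and narrow, with a median absolute change of 0.45 in the control-labelled and 0.24 in the deficit-labelled arm.

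The step of days 8 and 5 was set beside the difference between labels in young leaf, which shares no library with it. In young leaf of day 10, deficit-labelled and control-labelled libraries differed at 13623 loci (71.4% of those tested). Of the 9598 loci called between days 8 and 5, 7132 (74.3%) were called there with the opposite sign, which is 52.4% of the young leaf calls, and 537 (5.59%) with the same sign. The opposite sign means that a locus higher at day 8 was lower in deficit-labelled than in control-labelled young leaf. The median log2 fold change of deficit-labelled over control-labelled young leaf was -1.41 for the loci called at least 2-fold higher at day 8 and 2.05 for those called at least 2-fold lower, beside 0.01 over all loci. Of the loci at least 2-fold higher at day 8, 907 were called lower and 72 higher in deficit-labelled young leaf, beside 35.2% and 36.2% of all tested loci. Of those at least 2-fold lower at day 8, 1858 were called higher and 66 lower there. Over all tested loci the correlation was r = -0.702 (Pearson) and rho = -0.692 (Spearman). These directions hold between labels, and would read the other way round as watering if the labels of the arms had been exchanged, which was not tested.

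The loci that changed were spread over all chromosomes. By the chromosome number in their identifiers, between 47% of loci on chromosome 11 and 52.9% on chromosome 3 were called at day 8, near the 50.3% over all loci. Calls of at least 2-fold higher ranged from 4.94% on chromosome 5 to 8.24% on chromosome 2, and of at least 2-fold lower from 8.6% on chromosome 11 to 12.5% on chromosomes 5 and 9. Loci on sequence not assigned to a chromosome stood apart. Of their 144 tested members, 9 (6.25%) were called, all lower and all at least 2-fold. These loci were low in abundance, with a median of -1.2 log2 CPM and 102 of the 144 under 0 log2 CPM. At 0 log2 CPM or more, 4 of 42 were called. Of the 144, 13 were called without replicate 1 of the deficit-labelled day 10 group, and 2.08% were without day 8 replicate 1. The share was 17.4% with only the compared groups fitted and 2.65% with no filter on low counts.

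Loci with neighbouring identifiers tended to change together. Identifiers of placed loci mostly run along the chromosome by naming convention, and neighbours were taken in the order of the identifiers. The deposited table lists some loci in another order, so not all of these need be physical neighbours. Among tested loci next to one that was at least 2-fold lower at day 8, 17.6% were themselves at least 2-fold lower, beside 11.2% of all loci. For loci at least 2-fold higher the shares were 12.1% and 6.69%. Runs of 3 or more tested neighbours held 237 of the 2133 falling loci, in 69 runs, and 63 of the 1276 rising loci, in 20 runs. The longest falling run had 7 loci on chromosome 2, with a median of 4.71 CPM at day 8 and 51.6 CPM at day 5 and log2 fold changes from -3.75 to -1.93. The longest rising run had 5 loci on chromosome 3, with a median of 7.12 CPM at day 8 and 1.96 CPM at day 5. Neighbouring loci can be near-identical or overlapping copies that share reads, and how the authors counted such reads is not given in the sources used here.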

How the data were processed

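The values were raw read counts per locus, taken as counts because the deposited table holds whole numbers with unequal column totals. The aligner, the counter, the genome build and the use of strand are not given in the sources used here; the submitters' processing notes name DESeq2 without its role. Groups came from sample titles, and columns were matched by sample description.

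Counts were analysed with R 4.3.3, edgeR 4.0.16 and limma 3.58.1. The filterByExpr function kept 19087 of 34688 loci, with 99.97% of counts; 10322 had none. Library sizes were scaled by TMM. A model with 1 coefficient for each of 10 groups was fitted to all 27 libraries with robust dispersions, tested with the quasi-likelihood F test and adjusted by Benjamini-Hochberg over all tested loci, with calls at 0.05. SE is the fold change over the square root of F. Log2 CPM used a prior count of 2. The floor was 3 counts. The shared spread rises with the library that lies among the other label.

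Loci were eligible for naming when called, when their mean over all libraries reached 3 log2 CPM, and when no CPM value overlapped between days; for each direction they were the largest fold change and, of the others, the largest difference in CPM. Lists of gene families and of cell type markers were planned and could not be applied, because 0 identifiers matched the RefSeq table (41476 genes). Comparison, lists and rules were chosen with earlier results of these data known.

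On simulated data with 200 loci changed 2-fold at day 8, the script recovered 64.5% of them for days 8 and 5, with 7 false calls among 18417 unchanged loci. The simulation changed few loci, evenly up and down, and held no outlying library. In the data 50.3% of loci were called, so these rates cannot be carried over to them. Alternatives were DESeq2 1.42.0, scaling by RLE or by upper quartile, other filters on low loci, smaller sets of libraries, thinned counts, a replicate block, a test against a minimum change, and leaving out single libraries.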

Additional observations from a re-analysis of the deposited data

Results flagged for a closer look

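The change between days 8 and 5 differed between the arms at 8512 loci in the interaction test (edgeR's quasi-likelihood test, adjusted p below 0.05), and at 11059 without replicate 1 of the deficit-labelled day 10 group. Among the named loci, the difference of the steps, control-labelled minus deficit-labelled, was 6.65 on the log2 scale for Solyc02g084850.3, -9.95 for Solyc06g062330.3 and -0.85 for Solyc12g094620.3. The named loci were picked by the control-labelled step, which is part of this difference, so these values are descriptions. The value for Solyc06g062330.3 rests on 0 counts at day 8 and depends on the prior count of the fit. The other named locus, Solyc01g095320.4, did not pass this test with all libraries. No group had the 4 libraries needed to look for single outlying libraries.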

How the results depend on the processing

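The number of loci called between days 8 and 5 lay between 9128 and 11408 under the alternatives that kept both groups whole, and at 11729 without replicate 1 of the deficit-labelled day 10 group. Leaving out one library of the 2 groups gave 6322 to 8564. The number called at least 2-fold was 2594 to 3204 in those fits, and 2626 passed a test against a minimum change of 1.5-fold. Falls made up 62.6% of calls of at least 2-fold with all libraries, 66.3% with a mean CPM of at least 1, and 66.4% by DESeq2. The difference of the steps was called at 6456 to 8093 loci when one library was left out.

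With only the compared groups fitted, 5722 loci were called in the deficit-labelled arm, 6482 between days 5 and 4 and 7898 between days 10 and 8. With only control-labelled mature leaf fitted, the last 2 numbers were 6812 and 7451. Without replicate 1 of the deficit-labelled day 10 group, the 3 numbers were 6020, 7214 and 7877. These fits leave that library out, and the shared spread with it. Leaving out one compared library gave 489 to 1951, 2326 to 3084 and 1946 to 2929.

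The median log2 fold change of rising loci between days 10 and 4 was 1.19 to 1.41 when one library was left out, and that of falling loci -1.86 to -1.58. In young leaf the values were -1.44 to -1.23 and 1.78 to 2.06. Without replicate 1 of the deficit-labelled day 10 group the falling loci had -1.91 between days 10 and 4 and 2.15 in young leaf. In the deficit-labelled arm they were -0.12 to -0.04 for rising loci and -0.03 to 0.01 for falling loci, whose median of -0.01 is thus without a stable sign.

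The near-zero change of Solyc02g084850.3 in the deficit-labelled arm, 4.579e-05 on the log2 scale, turned negative at -0.01029 with RLE, -0.002067 with a mean CPM of at least 1, -0.001316 with only the compared groups, -0.02043 with the replicate block, -0.006926 by DESeq2, and lay between -0.3235 and 0.2918 without single libraries of that arm. The change of Solyc01g095320.4 between days 10 and 8 was 0.03558 without day 8 replicate 2 and -0.3984 without day 8 replicate 1. DESeq2 gave no adjusted p for Solyc01g095320.4. The share of unplaced loci called was 17.4% with only the compared groups and 2.65% with no filter. The evenly weighted ranking by abundance was chosen after seeing the data.

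The replicate number as a block gave 9192 calls between days 8 and 5, 1895 in the deficit-labelled arm and 8363 for the difference, and moved the median of rising loci in the deficit-labelled arm to -0.16, cause not tested. Same-numbered libraries of days 8 and 5 deviated together with r of -0.000517 and 0.025. Deviations of the 2 day 8 libraries mirror each other, so these values say little about pairing. Over all groups r was -0.183 to 0.313 (median 0.00973) for same numbers and -0.224 to 0.197 (median -0.00842) for different ones. Numbers were not taken as pairs. Totals of 16152430 to 19463781 counts limit what can be seen at low loci.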
